A study of Mus musculus with 3 samples.

Results

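Endothelial cell genes were examined in primary cultures of mouse ocular pigment epithelium. The members are 33 genes known from blood or lymphatic vessel lining, listed by name, and their probe sets were found through the gene annotation of the array. All 33 were on the array, among 18193 named genes, with 62 probe sets between them. The probe set of highest mean log2 signal over the arrays stood for each gene, and 18 of the members had only 1 probe set while 15 had more. The 3 cultures were of ciliary body pigment epithelium (CBPE), retinal pigment epithelium (RPE) and iris pigment epithelium (IPE), each on 1 array, so every value is a single measurement with no replicate error and no test between cultures can be made. Donor mice were adult C57BL/6 animals, 6 to 8 weeks old, with no genetic change or treatment given in the labels, and every culture was kept in serum-free medium overnight before RNA was taken. The medium was RPMI 1640 with 10% serum for CBPE and IPE and DMEM with 20% serum for RPE, so tissue and medium cannot be told apart in a comparison with RPE. The labels give cytokeratin-positive shares above 95% for CBPE and RPE, at 14 days, and above 99% for IPE, with no culture time for IPE.

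Endothelial cells line blood and lymphatic vessels. They are held together by VE-cadherin (Cdh5) and claudin-5 (Cldn5), receive vascular endothelial growth factors and angiopoietins through dedicated receptor tyrosine kinases, and owe their identity to ETS and SOXF transcription factors. The iris stroma and the ciliary processes are rich in vessels, and the retinal pigment epithelium rests on the choroidal capillaries, so dissected tissue of each kind lies next to endothelium.

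The values are scaled array intensities, called signals here. The floor of each array was the median of its non-control probe sets, at 17.3 in CBPE, 16.8 in RPE and 14.5 in IPE. Probe sets for bacterial transcripts reached 20.2 on the CBPE array, 16.6 on the RPE array and 7.9 on the IPE array, so a CBPE signal between 17.3 and 20.2 is no brighter than such controls. A gene was counted as different when its signals, with those under the floor set to it, differed at least 2-fold. Where the dimmer array was at its floor, the fold is a bound and is written "at least", taken over the floor or the brightest bacterial control of that array, whichever was higher. For the Actb control probe sets, the 3′ signal over the 5′ signal was 2.26 in CBPE, 2.25 in RPE and 1.5 in IPE, a difference between arrays that moves with every comparison against IPE and whose part in them was not tested.

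The list was detected mainly in the ciliary body culture. In CBPE 29 of the 33 members were above the floor, against 13 in RPE and 12 in IPE, while the shares of all genes above it were 65.5%, 64% and 63.1%. Of the 33 members, 12 were above the floor in CBPE alone, against 4.94% of all genes. None were so in RPE alone and 1 (Flt1) in IPE alone, against 514 and 485 of all 18193 genes. These 12 were Cdh5, Pecam1, Cldn5, Tie1, Ptprb, Sox7, Sox17, Sox18, Erg, Tal1, Mmrn2 and Lyve1. Another 7 were above the floor on all 3 arrays, namely Emcn, Ets1, Calcrl, Ramp2, Egfl7, Ecscr and Kdr, and 3 on none, namely Vwf, Prox1 and Lmo2. Of all 18193 genes, 10244 were above it on all 3 arrays and 4848 on none. The members nearest to the CBPE floor were Lyve1 at 18.1, just above it, and Lmo2 at 16.7, just under it. In RPE the nearest were Clec14a at 18.3 above and Erg at 16.2 under, and in IPE Esam at 14.7 above and Pecam1 at 14.2 under. With fewer endothelial cells and less RNA per cell giving the same signal in bulk RNA, these cannot be told apart.

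**Figure D1:**
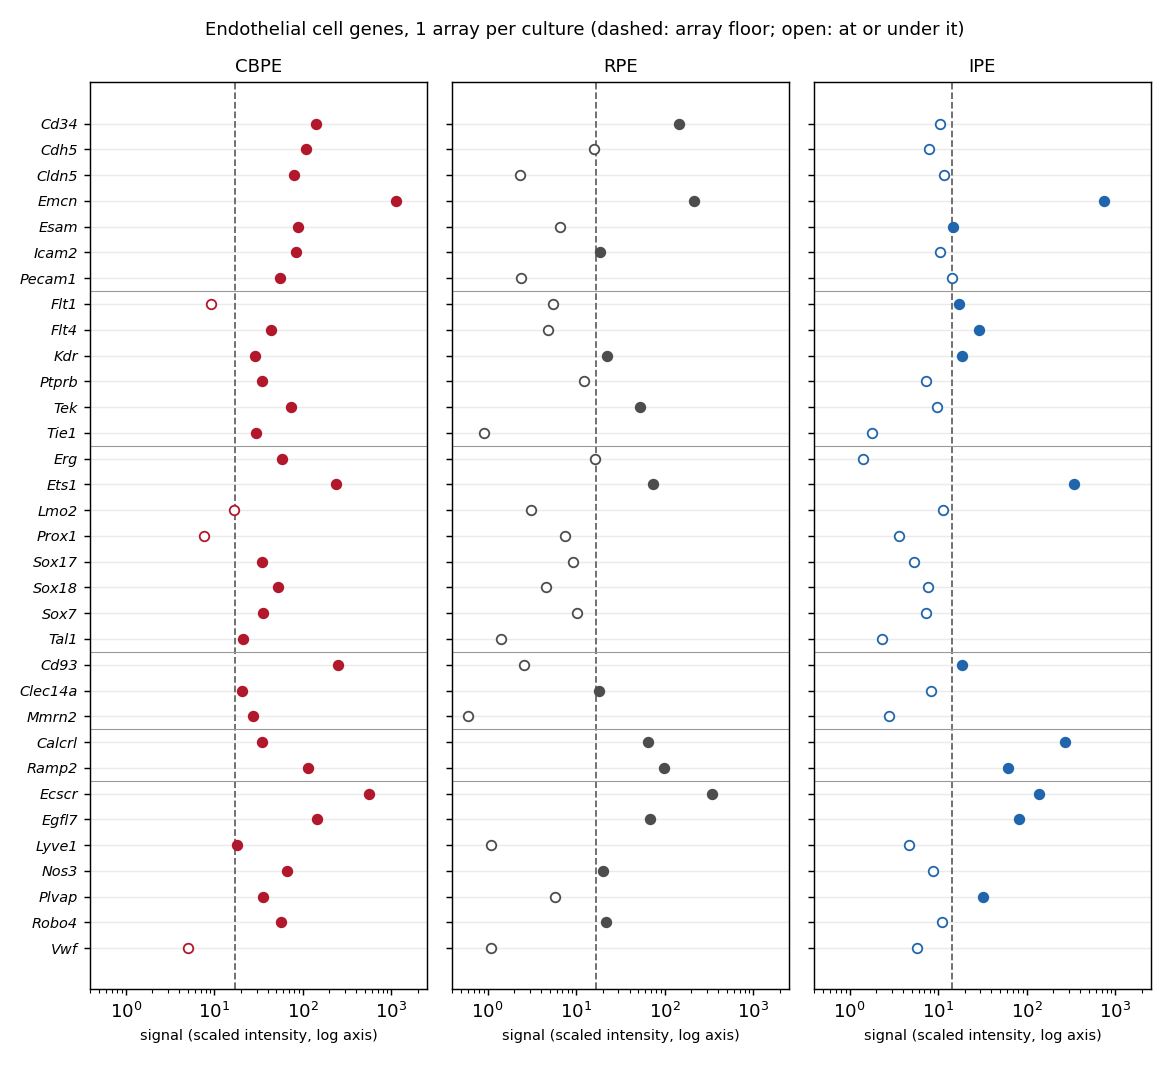
Signal of each endothelial cell gene (log axis, scaled intensity) in CBPE, RPE and IPE, 1 point per gene and array, grouped by role with thin lines, with the array floor dashed and genes at or under it open. In CBPE 29 genes lie above the floor, against 13 in RPE and 12 in IPE.

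Counted between pairs of cultures, 17 of the 33 members had a CBPE signal 2-fold or more above that of IPE, against 8.32% of all genes, and 1 (Calcrl) had one 2-fold or more below it, against 8.84%. Against RPE, 18 members were past the limit toward CBPE and 0 toward RPE, where the shares of all genes were 3.01% and 2.65%. Both comparisons rest on the same CBPE array, so anything particular to it enters both. Between RPE and IPE, 3 members (Tek, Ecscr and Cd34) were past the limit toward RPE and 3 (Emcn, Ets1 and Calcrl) toward IPE, against 6.75% and 7.16% of all genes. At the floor on both of these arrays were 15 members, against 5747 of all 18193 genes. The median log2 difference over the 33 members was 1.03 in CBPE minus IPE and 1.06 in CBPE minus RPE, and 0 in RPE minus IPE, against 0 over all genes in each comparison, with a gene at the floor on both arrays counted as 0.

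The only error these arrays allow is how far probe sets for 1 gene disagree. For genes whose dimmer array lay between the floor and 50, the pooled SD of the log2 difference between probe sets was 0.77 in CBPE minus IPE (887 genes), 0.59 in CBPE minus RPE (845 genes) and 0.73 in RPE minus IPE (907 genes). For signals above 100 on both arrays it was 0.49, 0.29 and 0.45. These values leave out genes whose dimmer array was at its floor, as it was for many members past the limit. With signals under the floor set to it and genes classed by their brighter array, the SD was 0.56 to 0.67 in CBPE minus IPE. In CBPE minus RPE it was then 0.36 to 0.52. Most members were dim, so a 2-fold difference, a log2 value of 1, was not far outside this disagreement, and it leaves out the spread between cultures and animals. Of the 17 members past the limit in CBPE over IPE, 15 had no further probe set above the floor to check them, and of the 18 in CBPE over RPE, 13 had none.

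**Figure D2:**
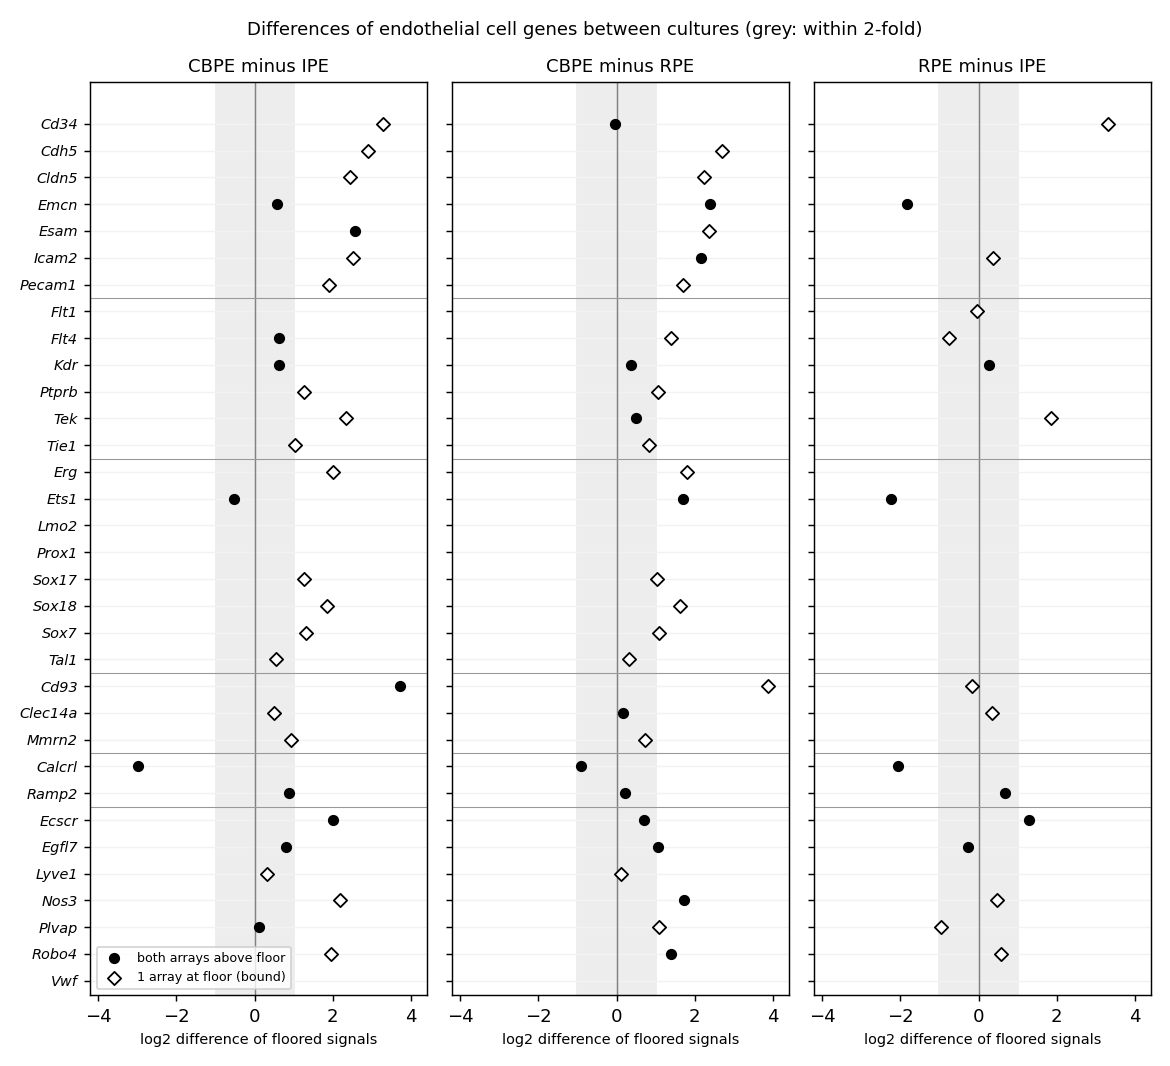
Log2 difference of floored signals for each endothelial cell gene in CBPE minus IPE, CBPE minus RPE and RPE minus IPE, with filled points where both arrays were above the floor, diamonds where 1 was at it, no point where both were or where no fold can be given (Flt1 in CBPE minus IPE and Esam in RPE minus IPE), and the range within 2-fold in grey. Most points lie to the right in both CBPE panels, with 17 and 18 genes past the 2-fold limit, and Calcrl stands farthest to the left in CBPE minus IPE.

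The stretch around the transcription start, 250 bases before it to 50 after, was looked up because ETS and SOXF factors are themselves members. RefSeq promoters of assembly GRCm38.p6 were matched for 15 of the 33 genes, in 21 windows. Shown are 5 genes that carry the contrasts described below. Cldn5 at chr16:18776597-18776896 (plus strand), Robo4 at chr9:37401722-37402021 (plus strand) and Tie1 at chr4:118489800-118490099 (minus strand) were highest in CBPE, Emcn at chr3:137340828-137341127 (plus strand) was bright in CBPE and IPE, and Calcrl at chr2:84425217-84425516 (minus strand) was highest in IPE. Capitals mark matches on either strand to the ETS core letters CAGGAAG.
Cldn5: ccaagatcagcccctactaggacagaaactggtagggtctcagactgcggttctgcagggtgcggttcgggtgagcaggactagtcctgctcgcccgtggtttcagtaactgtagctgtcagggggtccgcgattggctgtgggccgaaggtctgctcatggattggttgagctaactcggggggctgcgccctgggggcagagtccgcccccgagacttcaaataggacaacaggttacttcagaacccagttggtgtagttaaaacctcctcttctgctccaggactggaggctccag
Robo4: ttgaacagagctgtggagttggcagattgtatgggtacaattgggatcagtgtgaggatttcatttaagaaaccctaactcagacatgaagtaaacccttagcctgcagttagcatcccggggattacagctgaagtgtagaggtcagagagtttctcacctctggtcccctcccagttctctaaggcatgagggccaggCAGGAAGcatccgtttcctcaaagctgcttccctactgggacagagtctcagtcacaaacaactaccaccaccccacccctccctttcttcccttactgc
Tie1: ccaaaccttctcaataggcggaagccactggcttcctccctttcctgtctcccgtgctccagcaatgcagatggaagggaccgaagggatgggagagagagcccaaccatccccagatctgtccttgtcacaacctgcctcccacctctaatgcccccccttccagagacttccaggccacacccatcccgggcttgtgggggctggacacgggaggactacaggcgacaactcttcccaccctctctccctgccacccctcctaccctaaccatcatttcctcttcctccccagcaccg
Emcn: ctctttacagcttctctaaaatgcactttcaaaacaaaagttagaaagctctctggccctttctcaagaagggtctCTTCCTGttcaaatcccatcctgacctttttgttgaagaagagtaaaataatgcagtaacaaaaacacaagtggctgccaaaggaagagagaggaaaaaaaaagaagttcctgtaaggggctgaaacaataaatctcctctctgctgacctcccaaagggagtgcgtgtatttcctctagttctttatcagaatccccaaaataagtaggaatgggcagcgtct
Calcrl: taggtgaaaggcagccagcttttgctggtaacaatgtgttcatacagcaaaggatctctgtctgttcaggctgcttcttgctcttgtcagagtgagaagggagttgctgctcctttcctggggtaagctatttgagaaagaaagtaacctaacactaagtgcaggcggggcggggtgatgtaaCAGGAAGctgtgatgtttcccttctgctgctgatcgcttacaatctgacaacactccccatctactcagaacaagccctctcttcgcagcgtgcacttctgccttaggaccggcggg

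Of the 21 member windows, 7 held CAGGAAG on either strand (33.3%), against 13.3% of all 32851 promoters, in the genes Calcrl, Cd34, Egfl7, Emcn, Erg and Robo4. A second ETS core, CCGGAAG, which cannot overlap the first at the same position, was in 0 of the 21 and in 8.86% of all promoters. The SOX core AACAAT was in 4 of the 21 (19.0%), in Calcrl, Emcn, Erg and Tek, against 10.7% of all. The letters CAGGAAG stood in the windows of Robo4, highest in CBPE, and of Calcrl, highest in IPE, and were not in the windows of Cldn5 and Tie1. A match describes the letters only.

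Junction and adhesion genes gave the clearest contrast, with CBPE 2-fold or more above IPE for 6 of 7 members and above RPE for 6 of 7. Cdh5, which encodes the adherens junction protein of endothelium, had a signal of 108.3 in CBPE, 16.0 in RPE and 7.8 in IPE. Only CBPE was above its floor, by at least 6.45-fold over RPE and at least 7.47-fold over IPE. The other probe set of Cdh5 was under the floor on all arrays, at 9.6, 13.1 and 8.2 in CBPE, RPE and IPE, so a single probe set carries this contrast. Cldn5, the tight junction claudin of endothelium, followed the same order of detection at 79.1 in CBPE, 2.3 in RPE and 11.6 in IPE, a difference of at least 4.71-fold and at least 5.46-fold. Esam, an immunoglobulin-type adhesion molecule of endothelial junctions and platelets, was at 87.1 in CBPE, 6.6 in RPE and 14.7 in IPE, the last barely above its floor. Pecam1, an adhesion receptor shared with platelets and leukocytes, had 54.6 in CBPE, 2.4 in RPE and 14.2 in IPE, so CBPE exceeded them at least 3.25-fold and at least 3.77-fold. Icam2, a ligand of leukocyte integrins on endothelium and blood cells, was at 83.4 in CBPE, 18.6 in RPE and 10.4 in IPE, which is 4.48-fold above RPE and at least 5.75-fold above IPE.

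The sialomucin genes departed from that order. Cd34, which also marks haematopoietic progenitors and some fibroblasts, was at 142.0 in CBPE, 145.3 in RPE and 10.5 in IPE. CBPE and RPE were within 1.02-fold of each other, and both stood above IPE, by at least 9.79-fold and at least 10.0-fold. Emcn, endomucin, an endothelial surface mucin, had signals of 1114.8 in CBPE, 211.2 in RPE and 745.1 in IPE. Here IPE was not low: CBPE was 1.5-fold above it, a log2 difference of 0.58 close to the probe set disagreement of 0.49, while CBPE was 5.28-fold and IPE 3.53-fold above RPE. Emcn had 1 probe set, so no further one could check it.

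Among the receptors, those of the angiopoietin and vascular endothelial growth factor systems behaved differently from gene to gene. Tek, the angiopoietin receptor TIE2, was at 72.9 in CBPE, 52.1 in RPE and 9.6 in IPE, and was detected in CBPE and RPE. The difference between those 2 was 1.40-fold, whereas both lay above IPE, by at least 5.03-fold and at least 3.59-fold. Its partner Tie1 was at 29.6 in CBPE, 0.9 in RPE and 1.8 in IPE, so CBPE exceeded RPE at least 1.76-fold and IPE at least 2.04-fold. Ptprb, the phosphatase VE-PTP that acts on TIE2, had 35.0 in CBPE, 12.4 in RPE and 7.3 in IPE, which puts CBPE at least 2.08-fold over RPE and at least 2.41-fold over IPE. A second Ptprb probe set, at 21.7 in CBPE, 9.7 in RPE and 7.1 in IPE, was again above the floor in CBPE alone.

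Kdr, the main signalling receptor of VEGF-A, was at 28.6 in CBPE, 22.2 in RPE and 18.5 in IPE. Its log2 difference of 0.63 in CBPE minus IPE and 0.37 in CBPE minus RPE lay within the probe set disagreement for dim genes. Flt1, the VEGF-A receptor that also exists as a soluble decoy, had 4 probe sets, and the representative one was at 9.3 in CBPE, 5.4 in RPE and 17.3 in IPE. Only the IPE value was above its floor, by little, and no fold above CBPE can be given. Flt4, the receptor of VEGF-C and VEGF-D known from lymphatic endothelium, was at 44.0 in CBPE, 4.8 in RPE and 28.6 in IPE, and its other probe set at 34.5, 6.0 and 18.0. Both probe sets placed RPE lowest, with CBPE at least 2.62-fold above RPE by the brighter, and CBPE 1.54-fold above IPE.

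Of the 8 transcription factor members, 5 were above the floor in CBPE alone, Ets1 in all 3 cultures, and Prox1 and Lmo2 in none. CBPE was 2-fold or more above IPE for 4 and above RPE for 5. The SOXF genes, which specify endothelial and arterial fate, were each above the floor in CBPE alone. Sox18 was at 51.9 in CBPE, 4.6 in RPE and 7.6 in IPE. Sox7 had 35.8 in CBPE, 10.2 in RPE and 7.2 in IPE. Sox17 gave 34.7 in CBPE, 9.3 in RPE and 5.3 in IPE by a probe set that may match several transcripts. The fold bounds were 3.09 over RPE and 3.58 over IPE for Sox18, 2.13 and 2.47 for Sox7, and 2.07 and 2.39 for Sox17, the last near the 2-fold limit. The second Sox17 probe set was at 15.5 in CBPE, under the floor, as were both others at 6.1 in RPE and 12.6 in IPE. Erg, an ETS factor that maintains endothelial identity, was at 58.4 in CBPE, 16.2 in RPE and 1.4 in IPE, with CBPE at least 3.48-fold over RPE and at least 4.03-fold over IPE. Its other probe set did not exceed 1.3 on any array.

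Ets1, an ETS factor also active in lymphocytes and fibroblasts, was highest in IPE, at 236.6 in CBPE, 72.7 in RPE and 343.5 in IPE. CBPE was 3.25-fold and IPE 4.72-fold above RPE, and the second brightest of its 4 probe sets had the same order at 107.9, 48.1 and 277.8. Another, close to the floors, had CBPE highest at 23.5 in CBPE, 17.1 in RPE and 20.9 in IPE. The last was at 15.9 in CBPE, 2.8 in RPE and 15.5 in IPE. It was above the floor in IPE alone only because the IPE floor is lower, at 14.5 against 17.3 in CBPE. The blood and vessel regulators Tal1 and Lmo2 were near or under the floor, Tal1 at 21.0 in CBPE, 1.4 in RPE and 2.3 in IPE, and Lmo2 at 16.7, 3.1 and 11.4. Prox1, the regulator of lymphatic identity that is also active in lens and retina, was under the floor by all 3 of its probe sets, the representative one at 7.7 in CBPE, 7.4 in RPE and 3.6 in IPE.

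Cd93, a C-type lectin receptor of endothelium that myeloid cells carry too, showed the largest measured fold among the 33 members in CBPE over IPE. Its signal was 248.1 in CBPE, 2.6 in RPE and 18.7 in IPE, which is at least 14.8-fold above RPE and 13.3-fold above IPE. A second probe set gave 214.8 in CBPE, 12.0 in RPE and 19.8 in IPE, and another 21.8, 4.5 and 14.4, so all that exceeded the floor had CBPE highest. The other 2 probe sets were under the floor throughout. Clec14a, a related lectin receptor, was at 20.5 in CBPE, 18.3 in RPE and 8.2 in IPE, close to the floors. Mmrn2, the matrix ligand of both receptors, was at 27.7 in CBPE, 0.6 in RPE and 2.8 in IPE, with bounds of 1.65 over RPE and 1.91 over IPE that fall short of the 2-fold limit. Of its further probe sets, 1 was above the floor in CBPE, at 22.3, and 1 in RPE, at 19.9.

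**Figure D3:**
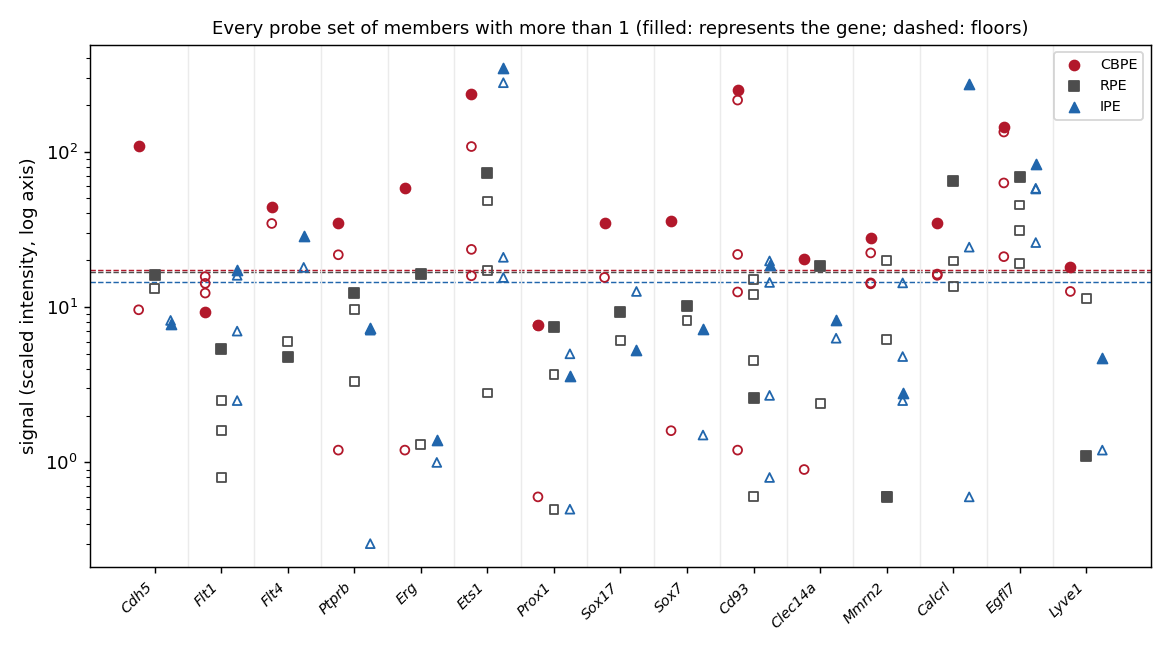
Signal (log axis, scaled intensity) of every probe set of the 15 members with more than 1, with the representative one filled and the others open, for CBPE, RPE and IPE. Cd93 has 2 probe sets at 248.1 and 214.8 in CBPE, the Ets1 and Calcrl representatives are highest in IPE, and the second Cdh5 and Erg probe sets lie under the dashed floors.

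Of the 7 remaining vessel genes, Ecscr and Egfl7 were above the floor in all 3 cultures, Nos3 and Robo4 in CBPE and RPE, Plvap in CBPE and IPE, Lyve1 in CBPE alone and Vwf in none. Nos3, endothelial nitric oxide synthase, was at 66.2 in CBPE, 20.0 in RPE and 8.8 in IPE, 3.31-fold above RPE and at least 4.57-fold above IPE. Robo4, an endothelial guidance receptor that stabilises vessels, was at 56.2 in CBPE, 21.5 in RPE and 11.1 in IPE, 2.61-fold above RPE and at least 3.88-fold above IPE in CBPE. Plvap, which forms the diaphragms of fenestrated capillaries such as those of the ciliary processes and choroid, had 35.4 in CBPE, 5.8 in RPE and 32.5 in IPE. CBPE and IPE were within 1.09-fold for Plvap, and CBPE was at least 2.11-fold above RPE.

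Ecscr, an endothelial surface protein named for its role in chemotaxis, was detected in every culture, at 552.6 in CBPE, 337.8 in RPE and 138.4 in IPE. Unlike Cdh5 and Cd93, it had RPE 2.44-fold above IPE, and CBPE was 1.64-fold above RPE and 3.99-fold above IPE by its single probe set. Of the 3 genes taken as defining for endothelium, Cdh5, Cd93 and Ecscr, all were thus above the floor in CBPE, Ecscr alone in RPE, and Cd93 and Ecscr in IPE. Egfl7, a secreted factor of vessel lining, was at 144.3 in CBPE, 68.9 in RPE and 82.8 in IPE, 2.09-fold and 1.74-fold higher in CBPE. That probe set may match several transcripts. Further ones gave 133.8 in CBPE, 19.0 in RPE and 58.1 in IPE, and 62.9, 45.4 and 57.5, with CBPE highest in each. The 4 probe sets of Egfl7 did not all share an order, since the dimmest gave 21.1 in CBPE, 31.1 in RPE and 26.0 in IPE. Vwf, the clotting factor carrier stored by endothelium and platelets, was under the floor everywhere, at 5.0 in CBPE, 1.1 in RPE and 5.8 in IPE. Lyve1, the hyaluronan receptor of lymphatic endothelium and some macrophages, was at 18.1 in CBPE, 1.1 in RPE and 4.7 in IPE, and its CBPE value was under the 20.2 of the bacterial controls there.

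The adrenomedullin receptor genes ran apart. Calcrl, the receptor subunit, was at 34.5 in CBPE, 65.2 in RPE and 271.5 in IPE, so that IPE was 7.87-fold above CBPE and 4.16-fold above RPE. A second probe set was highest in IPE too, at 16.0 in CBPE, 19.8 in RPE and 24.3 in IPE, while the last was under the floor throughout. Ramp2, the accessory protein that turns it into the adrenomedullin receptor, was at 113.6 in CBPE, 98.0 in RPE and 61.6 in IPE, and no pair of cultures differed 2-fold. Adm, which encodes adrenomedullin, was at 925.5 in CBPE, 638.5 in RPE and 1589.3 in IPE, with IPE 2.49-fold above RPE.

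The ligands of the member receptors were listed separately, 12 genes in all. Vegfa, the ligand of Kdr and Flt1, was highest in IPE, at 196.5 in CBPE, 55.4 in RPE and 720.4 in IPE. Vegfd, a ligand of Flt4, was highest in RPE, at 186.4 in CBPE, 520.9 in RPE and 43.3 in IPE, and Vegfc in IPE, at 130.1, 110.0 and 233.9. Angpt1, the activating ligand of Tek, was at 147.1 in CBPE, 370.0 in RPE and 255.3 in IPE. Angpt2, its context-dependent antagonist that endothelium itself makes, was at 133.1 in CBPE, 31.5 in RPE and 130.9 in IPE. Of the 12 ligands, 5 were past the 2-fold limit toward CBPE and 2 toward IPE in that pair, against 8.32% and 8.84% of all genes. In the pair of CBPE and RPE, 4 were past it toward CBPE and 2 toward RPE, against 3.01% and 2.65%. Those past it toward CBPE over IPE were Vegfd, Pgf, Adm2, Angpt4 and Slit3, and those toward IPE were Vegfa and Vegfb. Pgf, at 100.3 in CBPE, 3.2 in RPE and 11.2 in IPE, and Adm2, at 45.7, 12.0 and 6.1, were above the floor in CBPE alone. The receptors and their ligands thus had no common order over the cultures.

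A further 40 endothelial genes were listed, of which 39 were on the array. Like the members, they were chosen with earlier results of these data known, so they are no independent check. Of the 39, 11 were past the 2-fold limit toward CBPE and 3 toward IPE, against 8.32% and 8.84% of all genes. In the pair of CBPE and RPE, 11 were past it toward CBPE and 0 toward RPE, against 3.01% and 2.65%. The median log2 differences were 0.41 and 0.53. Between RPE and IPE, 1 was past the limit toward RPE and 6 toward IPE, against 6.75% and 7.16% of all genes. The 6 brightest were Pdpn, Vcam1, Icam1, Thbd, Rhoj and Nr2f2, none of them known from endothelium alone. Pdpn, a marker of lymphatic endothelium and of many mesenchymal and epithelial cells, was at 6460.2 in CBPE, 4080.1 in RPE and 2577.7 in IPE. Thbd, which encodes thrombomodulin, was at 328.0 in CBPE, 462.6 in RPE and 1241.7 in IPE. Named after their values were seen, Notch4, an endothelial Notch receptor, was at 78.4 in CBPE, 11.6 in RPE and 5.0 in IPE, and Aplnr, the apelin receptor, at 48.6, 6.6 and 3.5. Adgrl4 was at 41.7 in CBPE, 7.4 in RPE and 2.0 in IPE, and Myct1 at 38.1, 9.0 and 1.0. Each of these 4 was above the floor in CBPE alone, and 9 of the 39 in all.

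Some markers of other cells were also higher in CBPE. Of 16 markers of macrophages and leukocytes, CBPE was 2-fold or more above IPE for 9 and above RPE for 9, and below either for 0. The shares of all genes were 8.32% above IPE and 3.01% above RPE, and 8.84% and 2.65% below. The summed signal of the 16 markers was 2554 in CBPE, 609.3 in RPE and 421.5 in IPE. Tyrobp, an adaptor of myeloid receptors, was at 230.8 in CBPE, 27.7 in RPE and 14.4 in IPE, and Csf1r, the macrophage growth factor receptor, at 116.0, 40.0 and 13.9. Of the 16 markers, 5 were under the floor on every array. Ptprc, the pan-leukocyte marker CD45, was among them, at 13.3 in CBPE, 0.6 in RPE and 2.9 in IPE. Pecam1, Icam2, Cd93, Lyve1, Cd34, Tal1 and Lmo2 are also made by blood cells, whereas Cdh5, Cldn5, Tie1, Sox17, Sox18 and Nos3 are not usual leukocyte genes. Which cells gave each signal was not tested.

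Pericytes and smooth muscle cells wrap small vessels. Of 14 markers of these cells, CBPE was 2-fold or more above IPE for 5 and below it for 2, and above RPE for 4 and below it for 0, with a summed signal of 28439.1 in CBPE, 18165.9 in RPE and 11732.2 in IPE. Rgs5, a pericyte gene, was at 3973.5 in CBPE, 1415.9 in RPE and 10.4 in IPE, at least 274-fold above IPE in CBPE and at least 97.6-fold in RPE. Rgs5 was therefore bright in RPE, where Cdh5, Cldn5, Cd93 and Sox18 were under the floor. Of the 33 members, 13 were above the floor in RPE, among them Ecscr at 337.8, Emcn at 211.2 and Cd34 at 145.3. Pdgfrb, the pericyte growth factor receptor that fibroblasts carry too, was at 1589.3 in CBPE, 1255.9 in RPE and 1129.1 in IPE. The summed signal came mostly from Acta2, at 14299.6, 9768.7 and 5496.4, and Tagln, at 6961.2, 5077.7 and 3966.8. The 2 markers lower in CBPE than in IPE were Myh11, at 22.1 in CBPE, 40.0 in RPE and 99.4 in IPE, and Des, at 28.5, 32.4 and 91.3. Ndufa4l2 was bright in CBPE and IPE, at 648.7 and 581.4, and at 83.9 in RPE. Of 10 fibroblast markers, CBPE was 2-fold or more above IPE for 5 and below it for 1, and above RPE for 1 and below it for 1. For both lists, the shares of all genes were 8.32% above IPE and 8.84% below it, and 3.01% above RPE and 2.65% below it.

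**Figure D4:**
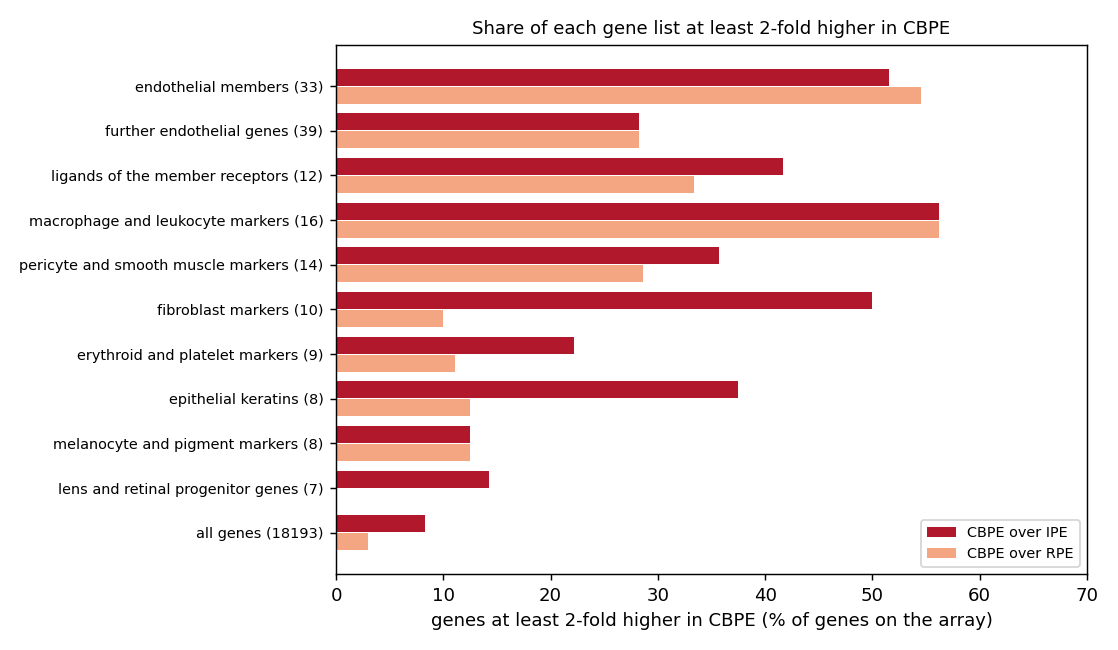
Percent of each gene list, of its genes on the array (number in brackets), with a CBPE signal 2-fold or more above IPE (dark) and above RPE (light). The endothelial members stand at 51.5% and 54.5%, the markers of macrophages and leukocytes at 56.2% in both, and all genes at 8.32% and 3.01%. The lists were chosen with earlier results of these data known.

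The labels of the cultures were set against epithelial and pigment markers. Of 8 keratins and epithelial genes, 4 were above the floor in CBPE, 5 in RPE and 4 in IPE, against 65.5%, 64% and 63.1% of all genes. Krt18, a simple epithelial keratin, was at 422.4 in CBPE, 218.6 in RPE and 144.1 in IPE, and Krt8 at 95.3, 26.2 and 17.4. Epcam had the same order, at 73.9, 49.6 and 24.0. Krt19 was highest in IPE instead, at 25.8 in CBPE, 2.2 in RPE and 39.9 in IPE. Krt7 and Krt5 were above the floor in RPE alone, at 21.9 and 21.6, so the list had no common order. The other 2 genes were under the floor on every array. Of 8 melanocyte and pigment markers, 5 were above the floor in CBPE, 6 in RPE and 7 in IPE, against the same shares of all genes. CBPE was 2-fold or more below IPE for 6 and below RPE for 3, and above each for 1. The shares of all genes were 8.84% below IPE and 2.65% below RPE, and 8.32% and 3.01% above. The tyrosinase gene Tyr, which makes the first step of melanin synthesis, was at 384.4 in CBPE, 493.3 in RPE and 1113.6 in IPE, whereas Dct was at 2.0 in CBPE, under the floor, 286.5 in RPE and 1429.1 in IPE. The culture with the most endothelial genes detected thus had the lowest signals of both pigment genes.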

How the data were processed

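RNA of each culture, amplified from 1 µg by in vitro transcription and labelled with biotin per the labels' protocols, was hybridised to 1 array. The deposited values are linear intensity values for 45101 probe sets, 64 of them controls. Their 2% trimmed mean was 100.001 on each array, so the authors had scaled them to a common target. Which software summarised the probes is not given in the sources used here, and detection calls were not used. Arrays give no counting depth, and their number limits the precision.

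Probe sets were named through GEO's annotation for the platform, updated by gene identifier to the RefSeq table of GRCm38.p6. Of the probe sets, 34945 had 1 gene, 932 had several and were not named, and 9160 that are no controls were not listed. Log2 was taken after raising signals under the floor to the floor. The members were given, and they and the 9 other gene lists were chosen with earlier results of these data known. Of each other list, the genes named are the up to 6 brightest and the defining ones, unless stated. The calls were tested on simulated data with changes planted only in genes bright on every array. The noise put in was smaller than the probe set disagreement given above. That test did not cover dim genes or signals at the floor, and most members were dim. Of 9 alternatives, 8 were planned and 1 was added after seeing the data. Python 3.11.15, numpy 2.4.6, pandas 2.3.3, scipy 1.17.1 and matplotlib 3.10.9 were used.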

Additional observations from a re-analysis of the deposited data

How the results depend on the processing

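No member that differed at least 2-fold changed direction under any alternative floor, scaling or choice of probe sets. A raised floor mainly shrinks a difference, so it could hardly reverse it, and direction was not compared at other fold limits. The counts depended on the floor. With the floor at the 60th percentile, 8 members were above it in RPE and 7 in IPE, 9 were past the 2-fold limit in CBPE over IPE (5.99% of all genes), and the median of CBPE minus RPE was 0.39. With a fixed floor of 100, 8 members were above it in CBPE, 4 of them in CBPE alone, 3 in RPE and 4 in IPE. Then 2 were past the limit in CBPE over IPE (4.08% of all genes), 3 in CBPE over RPE (0.841%) and 1 in RPE over IPE (3.48%). The medians of CBPE minus IPE and CBPE minus RPE were 0, since most members have signals under 100. Averaging a gene's probe sets gave a median of 0.71 in CBPE minus RPE. With a limit of 1.5-fold 1 member was lower in CBPE than in RPE, against 8.97% of all genes. At that limit 5 were lower in RPE than in IPE, 15.2% of the members and also 15.2% of all genes. With 3-fold 11 were higher in CBPE than in RPE, against 0.803% of all genes. With equal array medians, 16 members were past the limit over IPE (5.19% of all genes) and 18 over RPE (2.79%). With quantile normalization these were 18 (9.39%) and 18 (3.86%). The floor at the bacterial controls, added after seeing the data, left 28 members above it in CBPE and 11 in CBPE alone. For the changed floors, the share of all genes above them is not given here. Whether the drop in detected members was particular to them can therefore not be read from these counts. Of all genes, equal medians put 5.19% past the limit toward CBPE and 13.0% toward IPE in that pair, against 8.32% and 8.84% as deposited. No paired analysis was possible because each culture has 1 array. Low signal and the single array per culture limit every value.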

Other observations

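Of 12 erythroid and platelet markers listed, 9 were on the array under 1 gene name. In CBPE 6 of them were above the floor, against 4 in RPE and 3 in IPE, and CBPE was 2-fold or more above IPE for 2 and above RPE for 1, and below them for 0. Pf4, platelet factor 4, which some macrophages also make, was at 78.9 in CBPE, 22.6 in RPE and 18.3 in IPE. The globin gene Hba-a1 was under the floor on each array, at 2.9 in CBPE, 2.5 in RPE and 1.9 in IPE. Of 8 lens and retinal progenitor genes listed, 7 were on the array, and 4 were above the floor in each culture. Among these, CBPE was 2-fold or more above IPE for 1 and below it for 1 (Pax6), and above RPE for 0 and below it for 1 (Pax6). For both lists, the shares of all genes were 8.32% above IPE and 8.84% below it, and 3.01% above RPE and 2.65% below it. Fabp4, a fatty acid binding protein of capillary endothelium, adipocytes and macrophages, was at 140.7 in CBPE, 18.1 in RPE and 4.8 in IPE, 7.77-fold and at least 9.70-fold higher in CBPE. Stab1, a scavenger receptor of sinusoidal endothelium and macrophages, was at 77.2 in CBPE, 26.2 in RPE and 11.5 in IPE. Both were named after their values were seen.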
